A study of Mus musculus with 4 samples.

Results

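The 31 genes described here encode the sensors, signal carriers, chaperones and degradation factors with which a cell keeps proteins folded in the endoplasmic reticulum (ER). They were chosen by name, and each was read from the array probes whose RefSeq target belongs to the gene, taking the probe with the highest mean log2 signal where a gene had several. All 31 were found among 20832 genes named on the array, and the chosen probe of each was well above background on all 4 arrays, so none was lost to the filter on dim probes.

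When unfolded proteins build up in the ER, membrane sensors start the unfolded protein response. IRE1 (Ern1, and Ern2 in mucus-secreting epithelium) splices the Xbp1 messenger, PERK (Eif2ak3) phosphorylates a translation factor and so favours the synthesis of Atf4, and Atf6 is cut in the Golgi to release a transcription factor. Their targets are ER chaperones, disulfide isomerases and the machinery that sends misfolded proteins to the proteasome. Goblet cells and plasma cells, the heavily secreting cells of the colon, are known for a large ER and a high output of these genes.

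The samples were whole colons of C57BL/6J mice aged 14 weeks, either wild type (WT) or STAP-2-/-, a line lacking the adaptor protein STAP-2. All mice had received 1.75% dextran sulfate sodium (DSS), which injures the colonic epithelium. One field of the labels gives 7 days of DSS and another 3 days, so the length is not settled, and no colon without DSS was measured. Each array carried RNA pooled from 3 mice, with 2 arrays per genotype that the titles number 1 and 2 as biological replicates. The labels do not say what, if anything, WT 1 shares with STAP-2-/- 1. The p-values by genotype measure differences against the spread between the 2 pools of a genotype, which also differ in number. Those between the numbers use the spread between the WT and the STAP-2-/- array of equal number, which holds any genotype difference. The comparison the design puts is STAP-2-/- against WT, and the arrays numbered 2 were also set against those numbered 1. By the file headers WT 1 and STAP-2-/- 1 lay at positions 1 and 2 of the slide, WT 2 and STAP-2-/- 2 at 3 and 4. Number and position therefore cannot be told apart.

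The 4 arrays had a 75th percentile of signal between 2134 and 2348, and 68.4% to 70.5% of the spots were well above background. Every value below is a log2 signal relative to that percentile of the same array. It can be compared between arrays for 1 gene, not between genes. Stap2, the targeted gene, read 2.92 and 2.98 on the WT arrays and stayed at background on both arrays of STAP-2-/- mice. Among markers of colonic epithelium, Cdx1, Krt20, Car1 and Lgals4 were above 5 on every array. With 2 arrays a genotype, the number of arrays limits the precision.

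Between STAP-2-/- and WT colons no difference in the 31 genes passed the test used, limma with Benjamini-Hochberg adjustment over 15560 genes. The test passed 0 of all genes (0%) at an adjusted p of 0.05. Stap2, the targeted gene, was among those tested and did not pass, so a difference that does not pass may still be real. At an unadjusted p under 0.05 there were 326 genes (2.10%), among them none of the 31. At that level 0.797% of all genes were higher and 1.30% lower. By sign, 24 of the 31 were lower in STAP-2-/- colons and 7 higher, against 51.7% lower and 48.3% higher among all tested genes. The median log2 difference was -0.08, beside -0.01 over all genes. Groups did not overlap for 3 genes that were higher (Derl3, Ddit3 and Atf4) and 4 that were lower (Sec61b, Atf6, Creld2 and Derl2). Among all genes 11.5% were higher and 13.4% lower in that way, so the 7 of 31 lie near the share of 24.9% for both directions.

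The lean toward lower values was not there without 1 array. STAP-2-/- 1 had the lowest reading of the 4 arrays for 19 of 30 genes measured on all of them, while it was the lowest for 30.0% of all genes. Between the arrays numbered 1, STAP-2-/- was lower for 25 of 30 genes, with a median difference of -0.22, where 50.4% of all genes were lower and 49.5% higher. Between the arrays numbered 2 it was lower for 14 and higher for 17 of 31, with a median of 0.0038, where 51.8% of all genes were lower and 48.2% higher. Without STAP-2-/- 1 the median difference was 0.03 and 15 of 31 genes were lower, and without STAP-2-/- 2 the median was -0.22. In bulk RNA of this kind, fewer cells of a type and less RNA per cell cannot be told apart.

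**Figure D1:**
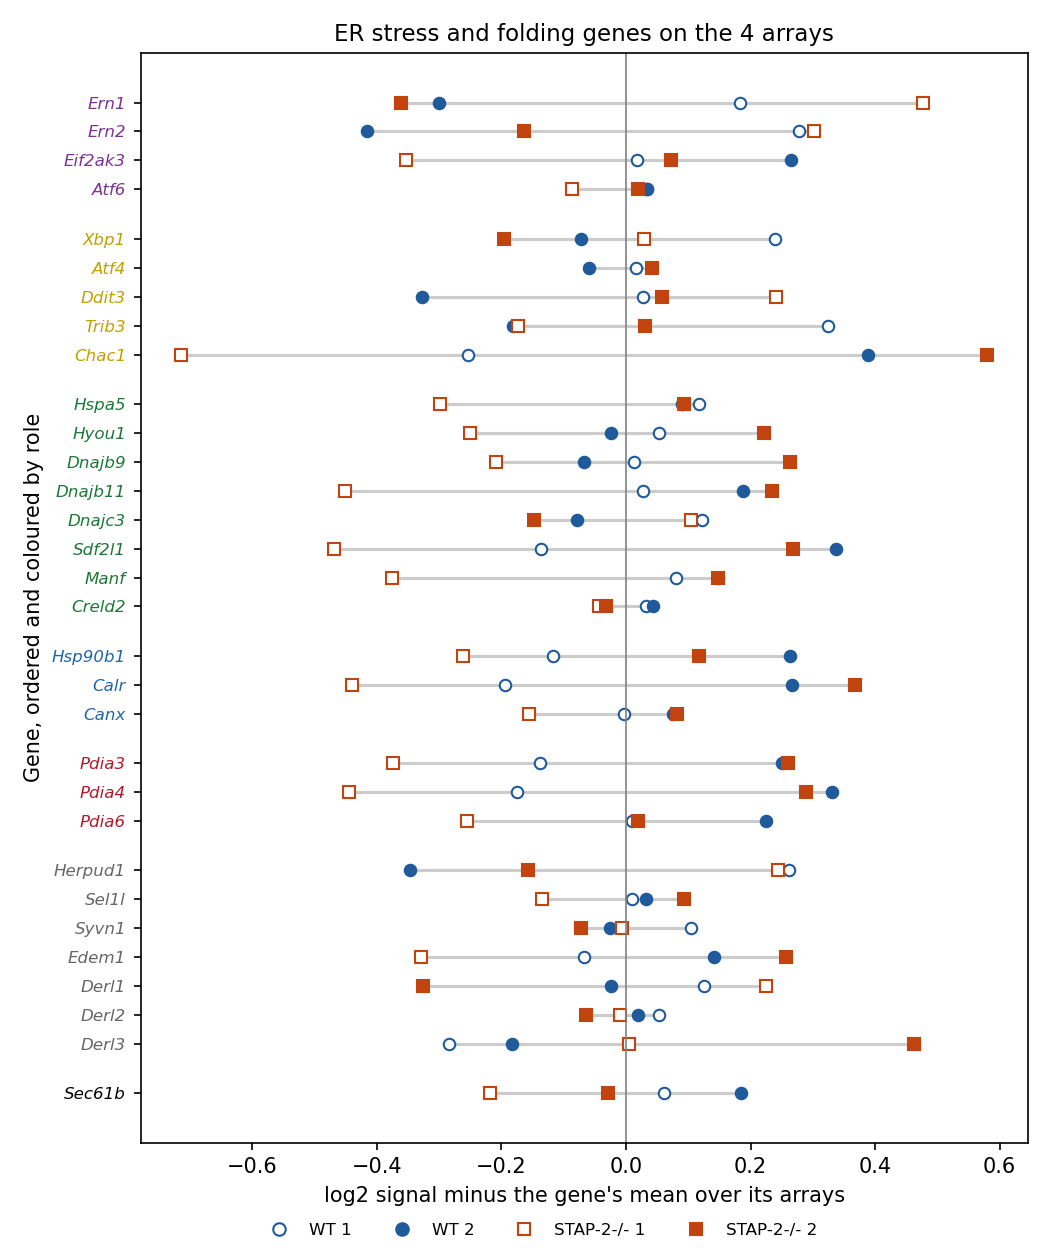
Each row is a gene, ordered and coloured by role; points are the 4 arrays (circles WT, squares STAP-2-/-, open symbols number 1, filled symbols number 2) as log2 signal minus the mean of that gene. The open square of STAP-2-/- 1 is leftmost in 19 of the 30 genes with 4 readings, and filled symbols lie to the right of open ones for Calr, Pdia3, Pdia4 and Chac1.

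**Figure D2:**
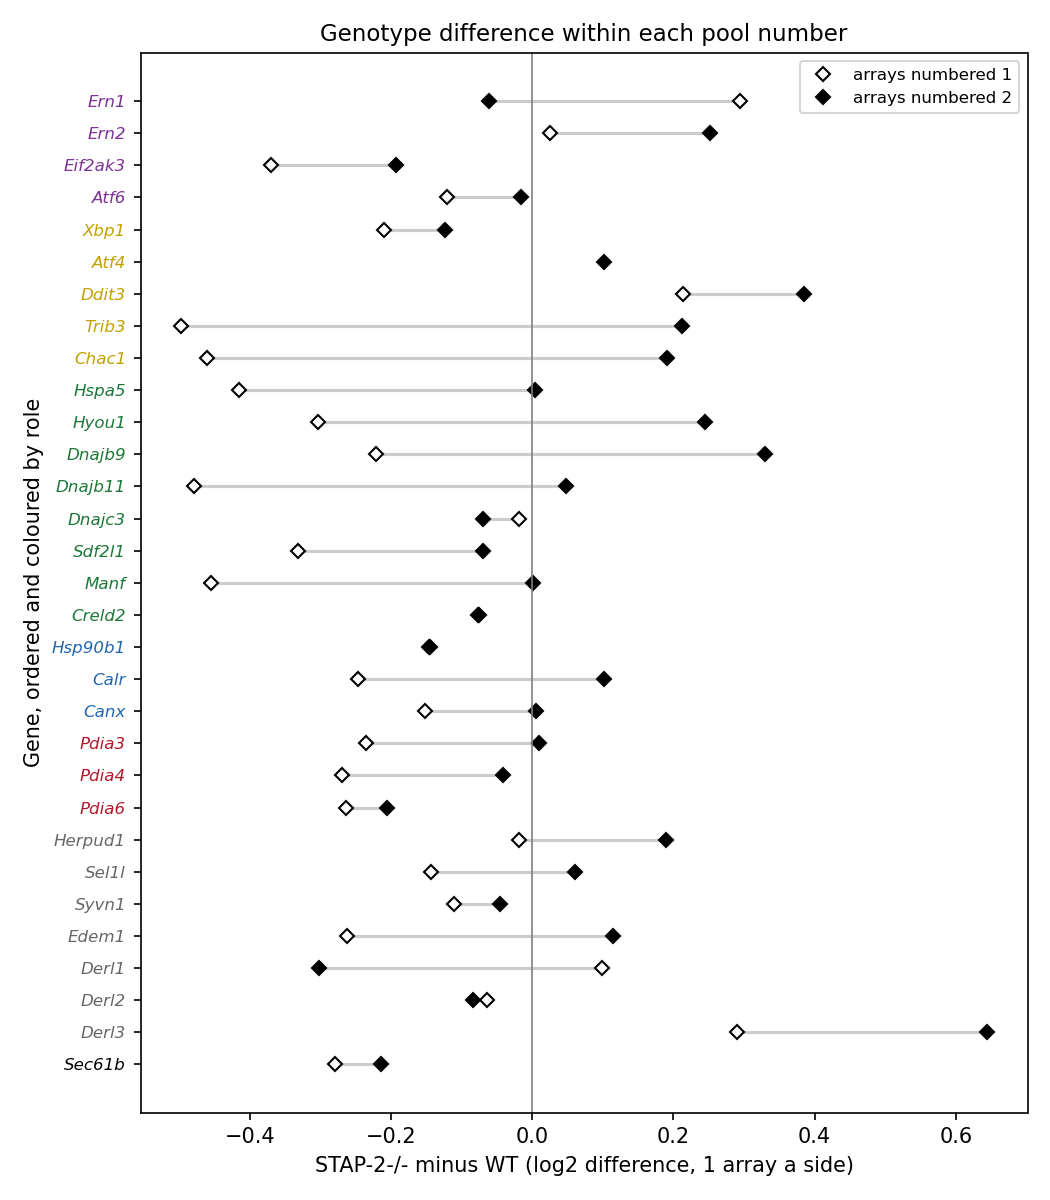
The log2 difference STAP-2-/- minus WT is drawn for each gene between the arrays numbered 1 (open) and between those numbered 2 (filled), 1 array a side. Open symbols lie below 0 for 25 of 30 genes, filled symbols for 14 of 31; Atf4 has no open symbol because its spot was flagged on STAP-2-/- 1.

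Between the numbers, the 3 disulfide isomerases and the 3 genes of Hsp90 and the lectin chaperones were higher on the arrays numbered 2. So were 7 of 8 genes of BiP and its partners, Creld2 by only 0.01. Within WT, however, 4 of these 8 were higher on array 2 and 4 lower, with a median of -0.01. Within STAP-2-/- 7 of the 8 were higher, with a median of 0.47. Over both genotypes, Calr was 1.55-fold higher on the arrays numbered 2, Pdia4 1.54-fold, Sdf2l1 1.52-fold and Pdia3 1.42-fold. Chac1, a gene of the PERK arm, was 1.96-fold higher. The genes grouped with it, Xbp1, Ddit3, Atf4 and Trib3, were lower, but only Xbp1 without overlap. Atf4 was nearly level, with a log2 difference of -0.03 on 3 arrays, and Trib3 differed by -0.51 within WT and 0.20 within STAP-2-/-. Both IRE1 genes and Herpud1 were lower on the arrays numbered 2, Ern1 1.58-fold, Ern2 1.5-fold and Herpud1 1.42-fold. None of these passed the test: limma gave 0 of 15560 genes (0%) past an adjusted p of 0.05, and the lowest adjusted p among the 31 was 0.117, for Chac1. At an unadjusted p under 0.05 there were 7 of the 31 higher, where 10.6% of all genes were, and 3 lower, where 14.7% of all genes were.

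By sign, 20 of the 31 genes were higher on the arrays numbered 2, and 11 lower, beside 44.8% and 55.2% of all genes. Their median log2 difference was 0.16, against -0.04 over all genes. Groups did not overlap for 13 genes that were higher and 7 that were lower, where the shares of all genes were 26.4% and 36.1%. Taken over both directions, 20 of 31 is close to the 62.4% of all genes. The median was 0.05 without STAP-2-/- 1, 0.07 without STAP-2-/- 2 and 0.27 without WT 1.

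Within WT, array 2 minus array 1 had a median of 0.01 over the 31 genes, 17 being higher and 14 lower, and within STAP-2-/- a median of 0.26 over 30, with 21 higher and 9 lower. The sign of the difference was the same in both genotypes for 26 genes, beside 77.2% of all genes. Across 30 genes the differences of the genotypes correlated with a Pearson r of 0.84, and across 15549 genes with an r of 0.60. These correlations are descriptions, since genes are not replicates and each genotype gives 1 pair of arrays.

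**Figure D3:**
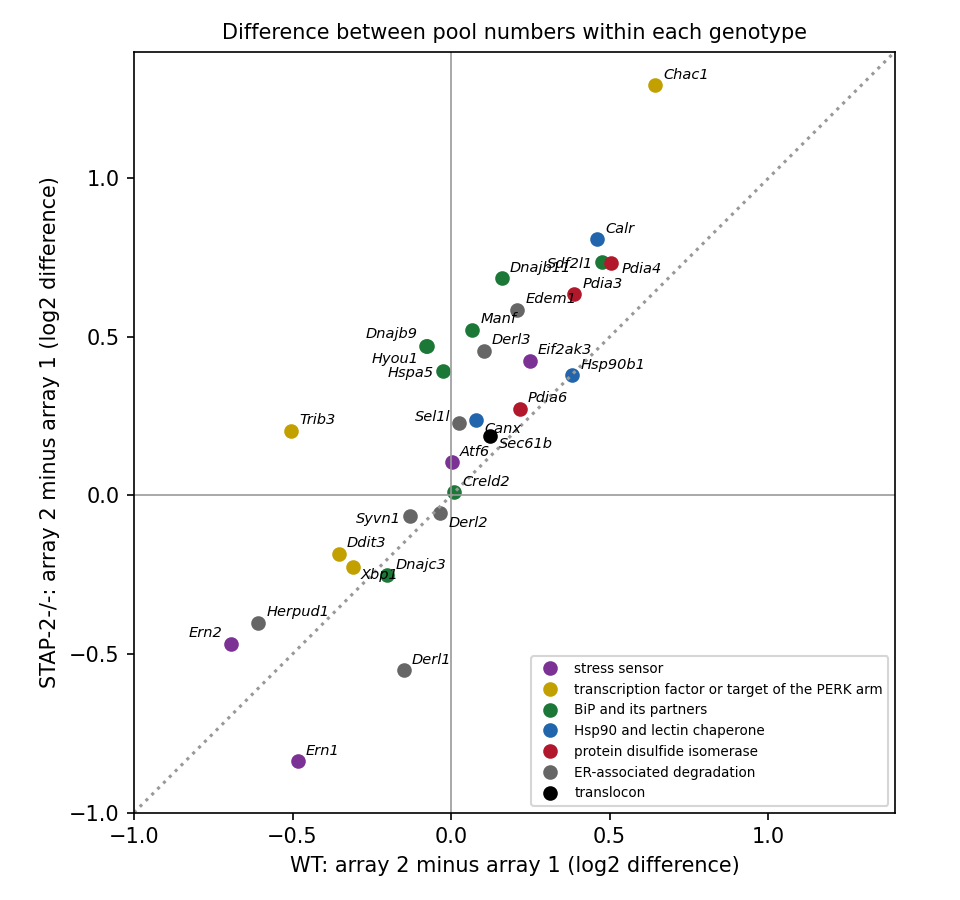
The log2 difference between array 2 and array 1 is plotted for WT (horizontal) against STAP-2-/- (vertical), with 1 point per gene coloured by role and a dotted line of equality. Chac1, Calr, Sdf2l1, Pdia4 and Pdia3 lie high in both genotypes, Ern1, Ern2 and Herpud1 low in both, and Trib3 is low in WT and high in STAP-2-/-.

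Among the sensors, the IRE1 pair ran opposite to PERK. Ern1, the kinase and nuclease found in most cells, read -2.49 on WT 1, -2.98 on WT 2, -2.20 on STAP-2-/- 1 and -3.04 on STAP-2-/- 2. Both arrays numbered 1 were above both numbered 2, by 0.66 on the log2 scale (SE 0.14; limma adjusted p = 0.125), while the genotypes overlapped. Ern2, its relative of secretory epithelium, read 0.17 and -0.53 in WT and 0.19 and -0.28 in STAP-2-/-, with array 1 first. It was again higher on the arrays numbered 1, the log2 difference of 2 minus 1 being -0.58 (SE 0.13; limma adjusted p = 0.127).

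Eif2ak3, the kinase PERK, went the other way, at 0.36 and 0.60 in WT and -0.01 and 0.41 in STAP-2-/-. Its genotype difference was -0.28 (SE 0.22; limma adjusted p = 1), and the groups overlapped through WT 1 and STAP-2-/- 2. Atf6 was nearly level, at -1.17 and -1.16 in WT and -1.29 and -1.18 in STAP-2-/-. Its groups did not overlap, although the mean difference was only -0.07.

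The transcription factors below the sensors did not move as a block. Xbp1, the factor that IRE1 activates by splicing, read 5.08 and 4.77 in WT and 4.87 and 4.65 in STAP-2-/-, so it was lower on the arrays numbered 2 by 0.27 and lower in STAP-2-/- within each number. Its genotype difference was -0.17 (SE 0.19; limma adjusted p = 1), and whether the probe sees the spliced or the unspliced messenger was not analysed here. Ddit3, which encodes the pro-death factor CHOP, read -1.21 and -1.56 in WT and -0.995 and -1.18 in STAP-2-/-. Both STAP-2-/- arrays were above both WT arrays, by 0.30 (SE 0.19; limma adjusted p = 1).

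Atf4, the factor translated when PERK is active, was measured on 3 arrays because its spot was outlier-flagged on STAP-2-/- 1. It read 5.19 and 5.11 in WT and 5.21 on STAP-2-/- 2, and the flagged spot itself read 5.13. Counted with that spot, the groups overlapped.

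Downstream of Atf4, Chac1 and Trib3 parted. Chac1, which degrades glutathione, had the widest range of the 31 genes, at -2.00 and -1.36 in WT and -2.46 and -1.16 in STAP-2-/-. Both arrays numbered 2 were higher, by 0.97 (SE 0.19; limma adjusted p = 0.117), and the genotypes overlapped. Trib3, a pseudokinase that restrains Atf4 and CHOP, read -2.34 and -2.85 in WT and -2.84 and -2.63 in STAP-2-/-. It was highest on WT 1 and close together on the other arrays, with overlap in both comparisons.

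The promoters of these genes were searched because several chaperones were higher together on the arrays numbered 2. Sequences were RefSeq promoter windows of assembly GRCm38.p6, from 250 bases before the start site to 50 after it, and 26 of the 31 genes had one. Searched on both strands were the ER stress response element ERSE (CCAAT, 9 free bases and CCACG), bound by Atf6 with the CCAAT-binding factor NF-Y, the shorter ERSE-II (ATTGG, 1 free base and CCACG), the core of the XBP1 element UPRE (TGACGTGG) and an ATF4 composite element (TTGCATCA). ERSE was found in 9 of the 26 genes, or 34.6%, and in 39 of 32851 windows in all, or 0.119%. The first share counts genes and the second windows. Since the 26 were chosen by name as genes of ER folding and stress, such shares are a description only. The sites are shown with the fixed letters in capitals and the free bases in lower case, each read along the strand on which it matches.
Hspa5: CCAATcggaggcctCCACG
Hsp90b1, far site: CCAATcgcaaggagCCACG
Hsp90b1, near site: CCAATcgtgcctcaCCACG
Calr: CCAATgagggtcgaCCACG
Canx: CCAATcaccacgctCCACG
Pdia6: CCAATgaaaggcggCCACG
Dnajc3: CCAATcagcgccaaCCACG
Creld2: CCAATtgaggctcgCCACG
Syvn1: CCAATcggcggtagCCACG
Derl3: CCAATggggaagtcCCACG

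ERSE-II was found in Herpud1 and Dnajb11, 7.69% of the 26 genes against 0.0365% of all windows. The ATF4 element was found in Chac1 and Herpud1, 7.69% against 0.895%, and the UPRE core in 0 of 26 against 0.676%. A match is a stretch of letters and no measurement of binding. The 250 bases before the start site follow for the chaperones that results turn on and for the carriers of an ATF4 element, on the gene's strand, with the fixed letters of each match in capitals. Where ERSE matches on the opposite strand, in Calr and at the near site of Hsp90b1, its letters appear reversed and complemented.
Hspa5, chr2:34771840-34772089, + strand: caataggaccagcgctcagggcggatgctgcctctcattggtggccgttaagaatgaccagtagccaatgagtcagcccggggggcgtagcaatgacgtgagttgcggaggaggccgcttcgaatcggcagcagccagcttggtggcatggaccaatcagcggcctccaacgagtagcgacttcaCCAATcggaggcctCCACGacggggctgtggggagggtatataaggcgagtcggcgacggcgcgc
Hsp90b1, chr10:86705445-86705694, - strand: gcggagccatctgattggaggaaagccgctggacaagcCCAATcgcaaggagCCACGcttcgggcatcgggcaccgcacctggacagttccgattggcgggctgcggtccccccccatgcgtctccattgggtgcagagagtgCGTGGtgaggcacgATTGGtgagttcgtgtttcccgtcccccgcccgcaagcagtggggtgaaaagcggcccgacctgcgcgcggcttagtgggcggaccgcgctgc
Calr, chr8:84846932-84847181, - strand: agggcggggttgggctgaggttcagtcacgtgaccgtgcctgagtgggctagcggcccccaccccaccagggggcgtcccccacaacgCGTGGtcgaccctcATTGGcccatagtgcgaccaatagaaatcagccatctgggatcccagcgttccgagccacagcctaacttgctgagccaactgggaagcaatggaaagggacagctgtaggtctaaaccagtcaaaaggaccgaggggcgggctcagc
Herpud1, chr8:94386179-94386428, + strand: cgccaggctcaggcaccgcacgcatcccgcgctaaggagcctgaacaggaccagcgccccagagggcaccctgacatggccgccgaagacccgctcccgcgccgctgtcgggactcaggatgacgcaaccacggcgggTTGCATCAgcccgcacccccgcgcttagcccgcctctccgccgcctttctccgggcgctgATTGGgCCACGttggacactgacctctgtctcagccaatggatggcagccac
Chac1, chr2:119350992-119351241, + strand: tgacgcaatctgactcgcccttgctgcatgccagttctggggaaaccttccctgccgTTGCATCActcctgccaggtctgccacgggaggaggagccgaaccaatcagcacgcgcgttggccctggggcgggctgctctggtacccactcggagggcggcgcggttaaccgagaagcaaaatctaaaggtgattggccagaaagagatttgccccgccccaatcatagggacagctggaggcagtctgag

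Genes with and without these elements did not separate by their array values. Of the 9 genes with ERSE, 7 were higher on the arrays numbered 2, with a median difference of 0.18 and a range from -0.23 (Dnajc3) to 0.63 (Calr). Of the 15 genes with a promoter but neither ERSE nor ERSE-II, 9 were higher, with a median of 0.16. By genotype the medians were -0.08 for the 9 and -0.11 for the 15. The 11 tested genes outside the group that carry ERSE had a median of 0.0080 between the numbers, 6 being higher. Chac1 and Herpud1 both hold the ATF4 element, and their differences between the numbers, 0.97 and -0.50, were opposite in sign.

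**Figure D4:**
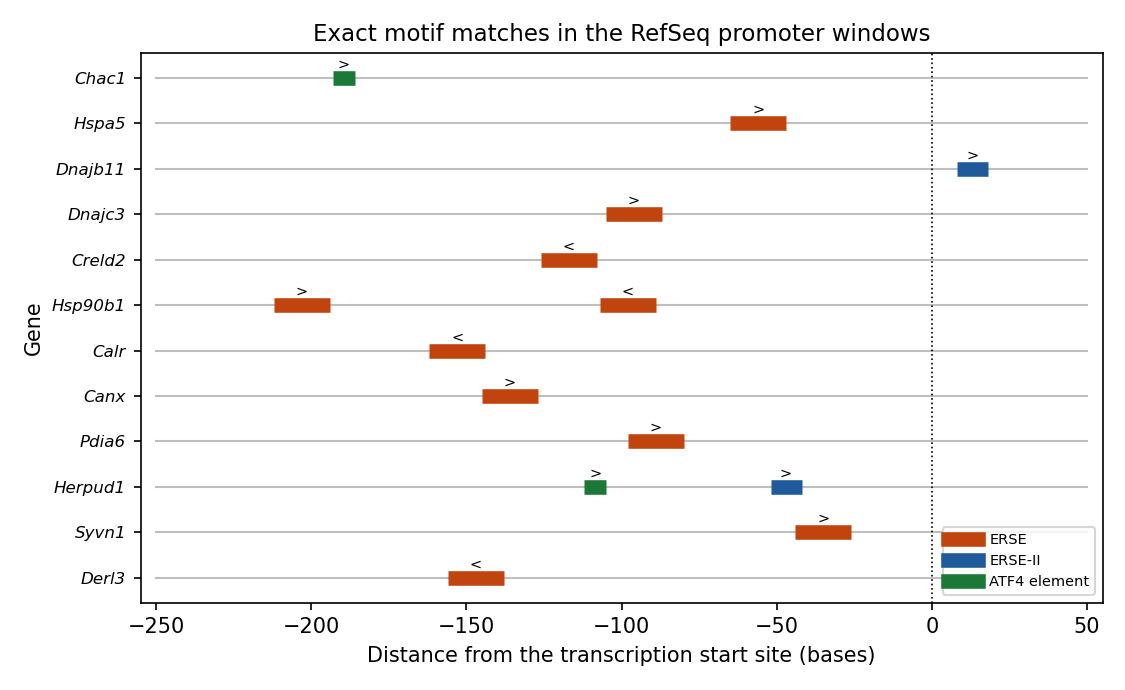
Exact matches to ERSE, ERSE-II and the ATF4 element are drawn for the 12 genes that have one, by distance from the start site in bases; the marks > and < give the gene's strand and the opposite strand. All ERSE matches lie between positions -212 and -26, and the ERSE-II of Dnajb11 lies just after it.

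Of BiP and its 7 partners, 7 genes were lowest on STAP-2-/- 1, Creld2 by a small margin, and Dnajc3 was not. Hspa5, the Hsp70 chaperone BiP, read 5.25 on WT 1, 5.22 on WT 2, 4.83 on STAP-2-/- 1 and 5.22 on STAP-2-/- 2. Only STAP-2-/- 1 stood apart, and the genotype difference was -0.21 (SE 0.19; limma adjusted p = 1). Manf, a secreted BiP-binding factor, showed the same form, at 2.50, 2.57, 2.05 and 2.57 in that order, with a genotype difference of -0.23 (SE 0.23; limma adjusted p = 1). Without STAP-2-/- 1 the sign of Manf turned, to 0.03.

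Dnajb11, the co-chaperone ERdj3, read 3.14, 3.30, 2.66 and 3.34, again lowest on STAP-2-/- 1. Sdf2l1, its partner in the ER, read 0.24, 0.71, -0.10 and 0.64. Both arrays numbered 2 were higher for Sdf2l1, by 0.61 (SE 0.15; limma adjusted p = 0.136), and the genotypes overlapped. Between the numbers Dnajb11 differed by 0.42, without overlap.

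Hyou1 and Dnajb9 also had their lowest reading on STAP-2-/- 1. Hyou1, BiP's nucleotide exchange factor, read -3.78, -3.86, -4.08 and -3.61, and Dnajb9, the co-chaperone ERdj4 that restrains IRE1, read 1.11, 1.03, 0.88 and 1.36. For both, STAP-2-/- 2 was highest, so the genotypes overlapped. Dnajc3, the co-chaperone p58IPK that inhibits PERK, was the exception of the group between the numbers, at 0.88, 0.68, 0.86 and 0.61 and thus lower on the arrays numbered 2 by 0.23. Creld2, an ER-resident secreted protein, was the steadiest, at 3.14, 3.15, 3.06 and 3.07. Its probe has 10 spots, averaged without those flagged as outliers on each of the 4 arrays. The chosen probes of the rest of the group have 1 spot, so the spreads are not measured alike.

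The chaperones of glycoprotein folding and Hsp90b1 were higher on the arrays numbered 2 in both genotypes. Hsp90b1, the ER form of Hsp90 also called GRP94, read 4.62 and 5.004 in WT and 4.48 and 4.86 in STAP-2-/-, array 2 being higher by 0.38 within either genotype. The genotypes overlapped. Calr, the lectin calreticulin, which binds calcium and newly made glycoproteins, read 3.71 and 4.18 in WT and 3.47 and 4.28 in STAP-2-/-. Its difference between the numbers was 0.63 (SE 0.13; limma adjusted p = 0.123). Canx, the membrane-bound lectin calnexin, spanned less, at 3.72 and 3.80 in WT and 3.57 and 3.81 in STAP-2-/-.

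The disulfide isomerases, which form and reshuffle disulfide bonds in client proteins, were likewise higher on the arrays numbered 2. Pdia3, the isomerase that works with the lectins, read 3.11 and 3.49 in WT and 2.87 and 3.50 in STAP-2-/-, a difference between the numbers of 0.51 (SE 0.13; limma adjusted p = 0.136). Pdia4 read 0.47 and 0.97 in WT and 0.20 and 0.93 in STAP-2-/-, a difference of 0.62 (SE 0.13; limma adjusted p = 0.125). Both arrays numbered 2 were above both numbered 1 for each, with STAP-2-/- 1 the lowest. Pdia6, which also acts on the IRE1 sensor, read 4.91 and 5.13 in WT and 4.65 and 4.92 in STAP-2-/-. It was lower in STAP-2-/- within each number, and the genotype difference was -0.24 (SE 0.18; limma adjusted p = 1).

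The degradation genes were split between the numbers. Herpud1, a membrane scaffold of the degradation complex, read 3.24 and 2.63 in WT and 3.22 and 2.82 in STAP-2-/-. Both arrays numbered 1 were higher, and the difference of 2 minus 1 was -0.50 (SE 0.12; limma adjusted p = 0.130). Edem1, a mannosidase-like lectin that hands misfolded glycoproteins over, ran opposite at 1.55 and 1.75 in WT and 1.28 and 1.87 in STAP-2-/-. Derl1, a channel component, was lower on the arrays numbered 2, at 1.56 and 1.41 in WT and 1.66 and 1.11 in STAP-2-/-.

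The core ligase was nearly level. Sel1l, the adaptor of the ligase, read 0.04, 0.06, -0.11 and 0.12 in the order WT 1, WT 2, STAP-2-/- 1 and STAP-2-/- 2, and Syvn1, the ubiquitin ligase Hrd1, read 3.54, 3.41, 3.43 and 3.36. Derl2, a relative of Derl1, stayed between 3.05 and 3.17.

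Derl3, a derlin of secretory cells such as plasma cells, gave the smallest unadjusted p by genotype among the 31 genes. It read -1.99 and -1.89 in WT and -1.70 and -1.25 in STAP-2-/-, so both STAP-2-/- arrays were higher, by 0.47 or 1.38-fold (SE 0.21; limma adjusted p = 1). With 1 array left out the difference ran from 0.24 to 0.70. Of 11 plasma cell markers tested, 9 were higher in STAP-2-/- colons, with a median of 0.10, and their summed signal, in units of the 75th percentile, was 47.8 and 44.4 in WT and 50.1 and 69.3 in STAP-2-/-. The list holds the ER folding factors Fkbp11 and Txndc5, which secretory cells of other kinds also express. The largest sum was on STAP-2-/- 2, where Derl3 was highest. The brightest probes dominate the sum, Jchain at 4.73 and 5.08 and Eaf2 at 3.95 and 4.51 on STAP-2-/- 1 and STAP-2-/- 2. Sdc1, Prdm1, Irf4 and Txndc5 were also highest on STAP-2-/- 2. Mzb1, Tnfrsf17 and Tnfrsf13b were highest on STAP-2-/- 1, and Pou2af1 and Fkbp11 on WT 2. The part of plasma cells in the Derl3 difference was not tested. Mzb1, itself an ER factor of plasma cells, read -1.23 and -1.09 in WT and -0.66 and -0.82 in STAP-2-/-.

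Sec61b, a subunit of the channel through which proteins enter the ER, was the lower gene with the smallest unadjusted p by genotype. It read 5.60 and 5.73 in WT and 5.32 and 5.51 in STAP-2-/-. Both STAP-2-/- arrays were below both WT arrays, by 0.25 (SE 0.15; limma adjusted p = 1). Its dimmer probe showed the same, at 1.88 and 1.95 in WT and 1.68 and 1.70 in STAP-2-/-.

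Dimmer probes of other genes could be set beside the chosen ones. For Pdia6 the second probe differed by -0.17 by genotype and by 0.55 between the numbers, against -0.24 and 0.24 for the chosen probe. For Dnajb9 the values were -0.05 and 0.43, against 0.05 and 0.20. For Derl1 they were 0.08 and -0.39, against -0.10 and -0.35, so the genotype sign of Dnajb9 and Derl1 depended on the probe. So did that of Derl2, at -0.07 for the chosen probe and for 1 other and 0.02 for the third. The second probe of Dnajb11 was not well above background on any array. The second probe of Atf4 was measured on all 4 arrays, at -0.26 and -0.42 in WT and -0.25 and -0.24 in STAP-2-/-, a genotype difference of 0.10.

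The wider pathway was described with lists that share no gene with the 31, and in both comparisons limma called 0 members of any list after adjustment. Between the numbers, genes of the PERK and ATF4 branch had a median of 0.22, with 26 of 33 tested genes, of 36 on the list, higher on the arrays numbered 2. Within that list, Gdf15, a stress-induced hormone, read 0.34 and -0.78 in WT and 0.40 and -1.25 in STAP-2-/-, and Atf3, a stress-induced repressor, read 1.32, 0.40, 1.77 and 0.45 on WT 1, WT 2, STAP-2-/- 1 and STAP-2-/- 2. Both were among the 7 that were lower, with log2 differences of -1.38 and -1.12. Aldh18a1, an enzyme of proline synthesis, was higher by 0.90.

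Protein entry and glycosylation genes leaned the same way between the numbers. The oligosaccharyltransferase and sugar-lipid list had a median of 0.16 with 15 of 20 higher, led by Stt3a, a catalytic subunit, at -0.36 and 0.17 in WT and -0.62 and 0.37 in STAP-2-/-. The 24 translocon and signal peptidase genes had a median of 0.13, 16 being higher. The 20 thiol oxidation genes had a median of 0.14, also with 16 higher. Among the latter, the oxidases Ero1a and Ero1b, which recharge the isomerases, were higher by 0.65 and 0.50. Among all genes 44.8% were higher and the median was -0.04. The lean was weaker within WT than within STAP-2-/-. The medians were 0.11 and 0.18 for the oligosaccharyltransferase list, 0.05 and 0.23 for the translocon list and 0.09 and 0.28 for thiol oxidation. For the PERK and ATF4 branch they were 0.10 in WT and 0.29 in STAP-2-/-.

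Other lists lay nearer to the background between the numbers. The degradation genes outside the group had a median of -0.05, 10 of 25 being higher, and Fam8a1, a cofactor of Hrd1, was lower on the arrays numbered 2, with a difference of -1.01. ER to Golgi transport had a median of 0.06 with 15 of 27 higher, ER calcium genes 0.07 with 10 of 15, and further sensors and regulators 0.06 with 16 of 26. Further ER chaperones had a median of 0.02, and so had the heat shock proteins of cytosol and mitochondria, with 13 of 21 higher. Hspa8, the constitutive Hsp70 of the cytosol, was lower on the arrays numbered 2, at 6.37 and 5.97 in WT and 6.56 and 5.93 in STAP-2-/-.

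By genotype the lists stayed close to 0. The lowest median, -0.16, belonged to the further ER chaperones, 16 of 20 being lower in STAP-2-/- colons, 6 of them without overlap where 13.4% of all genes were. Sil1, a nucleotide exchange factor of BiP, read 3.10 and 3.08 in WT and 2.83 and 2.76 in STAP-2-/-. The prolyl isomerases Fkbp10 and Fkbp14 belong to this list too, with differences of -0.36 and -0.28, and all 10 fibroblast markers were lower in STAP-2-/- colons, with a median of -0.32; their part in the list was not tested. The translocon list had a median of -0.07, 20 of 24 being lower, and the transport list a median of -0.05, 20 of 27 being lower. The heat shock proteins had a median of 0.05.

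**Figure D5:**
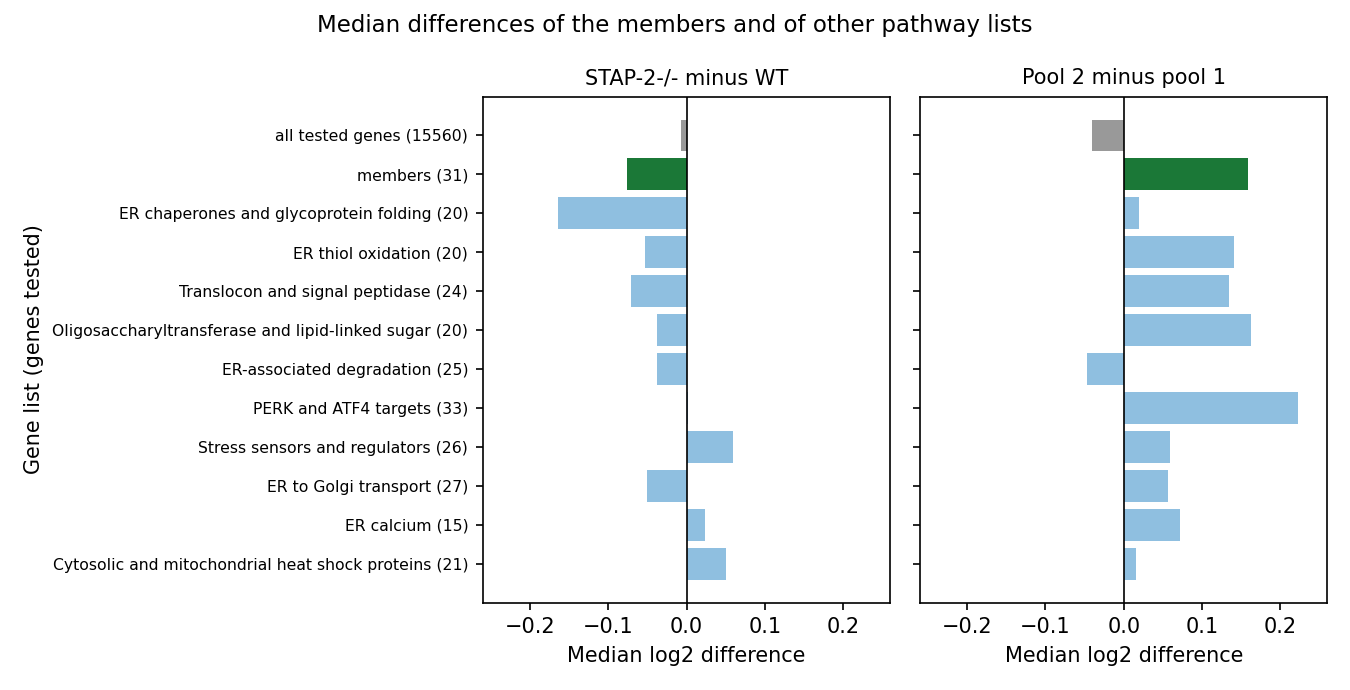
Bars give the median log2 difference of all tested genes (grey), of the 31 genes (green) and of each further list (blue), for STAP-2-/- minus WT and for pool 2 minus pool 1, with the number of genes tested in brackets. By genotype all medians lie between -0.16 and 0.06; between the numbers the PERK and ATF4 list (0.22), the oligosaccharyltransferase list and the 31 genes (both 0.16) reach farthest.

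Markers of cell types, from 15 lists, differed between the numbers in both directions, and 0 of any list passed limma after adjustment. All 8 adipocyte markers were lower on the arrays numbered 2, with a median of -0.68. For 5 of them the groups did not overlap, where 36.1% of all genes were lower in that way. Of 10 enteroendocrine markers 8 were higher there, with a median of 0.58, and of 8 T cell markers 7 were, with a median of 0.90. Colonic epithelial markers were split, with 5 higher and 11 lower and a median of -0.14. Epcam, a general epithelial marker, read 4.31 and 4.62 in WT and 4.16 and 4.86 in STAP-2-/-, higher on number 2, while Hoxb13, a marker of the distal hindgut, was lower there, at 4.91 and 3.74 in WT and 5.63 and 1.63 in STAP-2-/-. Both were chosen after their values were seen, to show the split.

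Goblet cell markers were split as well, with 5 of 13 higher on the arrays numbered 2 and a median of -0.07. Within STAP-2-/- 8 of the 13 were higher on array 2, with a median of 0.01. Their summed signal, which the brightest probes dominate, was 1025 and 895 on WT 1 and WT 2 and 987 and 815 on STAP-2-/- 1 and STAP-2-/- 2. Of 11 exocrine pancreas markers on the array, 3 were not well above background on any array, and the summed signal was 9.25 and 3.52 in WT and 15.1 and 2.14 in STAP-2-/-. That sum followed its brightest gene, Cela1, at 3.15 and 1.63 in WT and 3.88 and 0.76 in STAP-2-/-. Dim markers differed among themselves. Cpa1 and Pnlip were highest on STAP-2-/- 2, at -4.67 and -5.54, and Prss2 on STAP-2-/- 1, at -5.81. By genotype, markers of enteric neurons and glia were lower in STAP-2-/- colons in 11 of 11 cases, with a median of -0.35. Of these, 7 did not overlap, where 13.4% of all genes were lower in that way. Between the arrays numbered 2 alone, 8 of the 11 were lower, while 14 of the 31 genes were. All 10 smooth muscle markers were lower by genotype, with a median of -0.11. Larger medians by genotype were those of adipocyte markers, -0.61 with 6 of 8 lower, and of neutrophil markers, -0.51 with 4 of 5 lower. All 8 T cell markers were higher in STAP-2-/- colons, with a median of 0.58. Of these, 3 did not overlap, where 11.5% of all genes were higher in that way. Goblet cell markers were lower in 10 of 13 cases, with a median of -0.15. The part of these cell types in the differences of the 31 genes was not tested.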

How the data were processed

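RNA of whole colon was measured on 4 one-colour Agilent arrays, all on 1 slide with 1 scan time, so neither could be tested as a batch. The intensity of each spot, as the authors deposited it, had its background removed and spatial trend corrected per the file headers; the submitters' processing notes name Agilent Feature Extraction 10.7.1.1. The authors' deposited value table is a ratio, found on comparison to be the processed signal over 1 constant per array, and served as an alternative. Log2 values were taken from the deposited intensities minus the array's 75th percentile. Control spots were dropped, outlier-flagged spots set missing and spots of a probe averaged. Of 39429 probes, 27427 were named through RefSeq accessions (GRCm38.p6, names only, since the array is annotated on another build). Genes well above background on both arrays of a genotype (15560) were fitted with limma 3.58.1 in R 4.3.3, with Benjamini-Hochberg adjustment over all of them at a threshold of 0.05, by genotype and, separately, by number. The fit was tested on simulated data. The members and lists were chosen with earlier results of these data known. Statistics are given for the 8 genes with the smallest p in each comparison, and up to 3 genes per list and comparison could be named; cell type markers and Edem1, Derl1 and Dnajb11 are given by values.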

Additional observations from a re-analysis of the deposited data

How the results depend on the processing

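With 11 alternatives of scaling, background, filter, flags, probes and model, 29 of the 31 genes kept their sign by genotype and 29 between the numbers; with each array left out as well, 11 and 24 did. Normexp was run on the median spot intensity, a choice made after seeing the data; it passed 1 gene by genotype, Stap2. With an array left out, the members higher by genotype numbered 7 to 16 (16 without STAP-2-/- 1, 11 without WT 2) and those lower 15 to 23, and members at an unadjusted p under 0.05 by genotype numbered 0 to 1. Genes past the adjusted threshold between the numbers numbered 0 to 1 (1 without WT 1, Six2, named after its value was seen). The difference of Manf by genotype ran from -0.489 without STAP-2-/- 2 to 0.034, reversed, without STAP-2-/- 1. Genes at an unadjusted p under 0.05 by genotype numbered 143 to 830 with an array left out, and between the numbers 3943 became 1934 (STAP-2-/- 1 left out) or 2327 (STAP-2-/- 2 left out). A mean over the probes of Atf4 mixes a flagged bright with a dim probe, and its differences there are no measure. Arrays of equal number share only a number in the labels, and they lay side by side on the slide. Their deviations from the genotype means correlated by 0.631. With the replicate block, 0 genes passed by genotype, 1041 instead of 326 had an unadjusted p under 0.05, and 1 of the 31 genes did, Derl3. Signal over background did not limit the 31 genes; the number of arrays did.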
